A study of Danio rerio with 6 samples.

Results

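The 10 genes that encode the apolipoproteins of lipoprotein particles were followed in intestinal epithelial cells of the zebrafish: apobb.1, apobb.2 and apoba, apoa1a, the 4 apoA-IV genes apoa4a, apoa4b.1, apoa4b.2 and apoa4b.3, and apoea and apoeb. They were picked by gene name, letter case ignored, and make up 10 of the 32520 genes counted. Of these names 9 matched as written. The annotation lists no apoba, and the gene listed as APOB (ENSDARG00000042780) was taken for it, because 7 of the 8 nearest RefSeq neighbours of apoba (assembly GRCz12tu, used for gene order alone) also lie beside that gene. Cells came from larvae at 5 days post fertilization (dpf) and at 3 dpf, with 3 libraries at each age. At both ages the animals carried TgKI cldn15la-tdTomato, a knock-in that puts a red fluorescent protein under cldn15la, a claudin gene of gut epithelium, and the labels call the sorted cells cldn15 positive. Bodies without heads were pooled, dissociated with trypsin and collagenase, stained with the viability dye 7AAD and sorted, so a library is a pool of many animals and may hold any cell that entered the gate. In 3 dpf replicate 3 the treatment label says 4 dpf while the title says 3 dpf, and the title was followed. Non-transgenic controls were not analysed here.

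Apolipoproteins wrap the fats that cells export. Apolipoprotein B is the large scaffold of the particles that leave enterocytes as chylomicrons and the liver as very low density lipoprotein, and it stays on its particle for life. Apolipoproteins A-I, A-IV and E are smaller, move between particles, and in mammals serve as the main protein of high density lipoprotein, as an abundant product of the fat-absorbing gut and as a ligand of the receptors that clear lipoproteins. Fish have several copies of most of these genes, and in zebrafish embryos the yolk syncytial layer, which exports yolk fat, and later the liver make them too.

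Total counts ran from 112315914 to 125456069 in the 5 dpf libraries and from 102653637 to 113267448 in the 3 dpf libraries. The library of 5 dpf replicate 1 stood apart: mitochondrial genes took 29.2% of its counts, against 10.3 and 9.59% in the other 5 dpf libraries and 7.91 to 11.4% in the 3 dpf libraries, and its TMM scaling factor was 0.612, against 1.00 to 1.27 in the others. The 7 markers of intestinal epithelium summed to 4438 to 8320 CPM (counts over a common library size, scaled by TMM) at 5 dpf and 5839 to 6795 CPM at 3 dpf, and none was at 0 in any library. Behind these overlapping sums the markers differed: 2 passed the test as higher at 5 dpf and 2 as lower, with a median log2 fold change of -0.61. The most abundant, VIL1, averaged 2484 CPM at 5 dpf and 1242 CPM at 3 dpf. The 9 genes of enterocytes summed to 3889 to 11297 CPM at 5 dpf and 845 to 1279 CPM at 3 dpf. Of these 9 genes, 7 passed the test as higher at 5 dpf. To set beside both lists, 18.1% of all genes tested were called higher and 14.1% lower.

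Of the 10 apolipoprotein genes 9 rose at 5 dpf and none fell, by edgeR's quasi-likelihood test with an adjusted p under 0.05 over all 22386 genes tested. Of all genes tested, 18.1% were called higher and 14.1% lower. The exception was apobb.2, which had few reads at either age. In 9 of 10 the CPM of the 3 libraries at 5 dpf all lay above those of the 3 at 3 dpf, while 50.3% of all genes tested had ages that did not overlap in one direction or the other. The median log2 fold change of the 10 genes was 5.35, and that of all genes tested was 0.09. Fewer cells of a type and less RNA per cell cannot be told apart in such bulk libraries. The labels do not say whether the pools of an age came from separate clutches or days, so p-values reflect only the spread among pools.

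**Figure D1:**
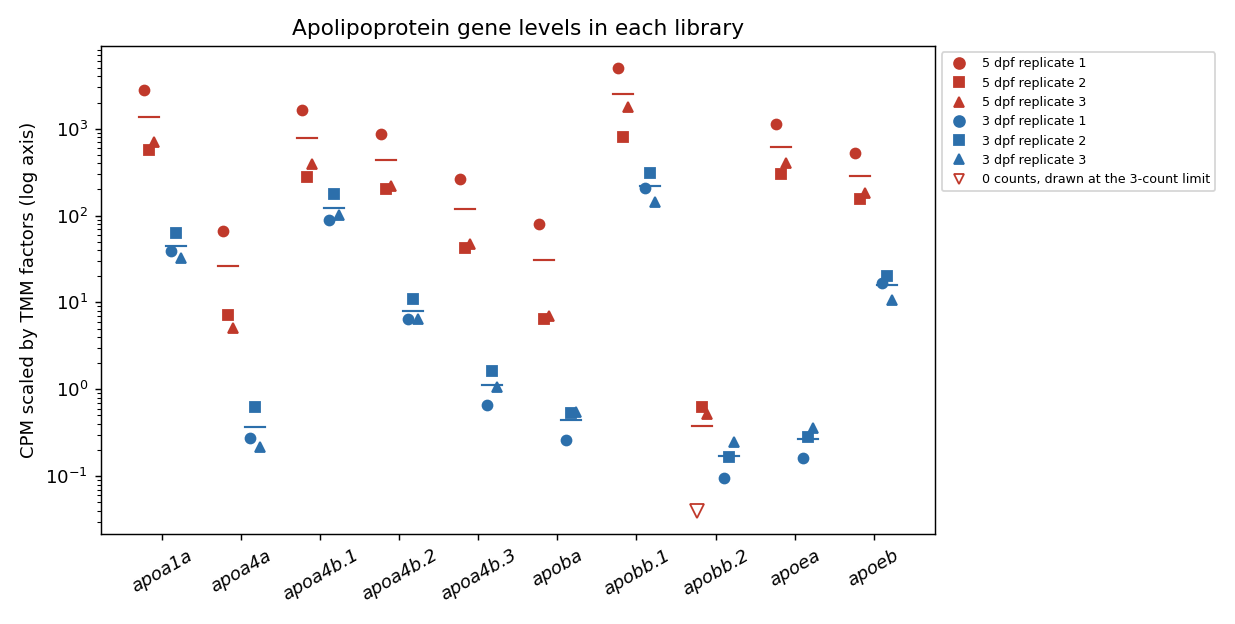
Level of each apolipoprotein gene in each library, as CPM scaled by TMM on a log axis, with 5 dpf libraries left of 3 dpf libraries for each gene and bars at the mean of 3 libraries. The 5 dpf points lie above all 3 dpf points for 9 of the 10 genes. The open triangle is a library with 0 counts (apobb.2 in 5 dpf replicate 1), drawn at the level that 3 counts would give, 0.0393 CPM.

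The apoB gene apobb.1 (ENSDARG00000022767, chromosome 20, bases 31269778 to 31285980 on the plus strand of GRCz11) took the most counts of the 10 genes in every library, over exons of 12857 bases. It had 4978, 808 and 1761 CPM in 5 dpf replicates 1, 2 and 3, against 210.1, 308 and 144 CPM in 3 dpf replicates 1, 2 and 3. The ages did not overlap, and the lowest 5 dpf library was above the highest 3 dpf library. Mean levels were 2516 ± 2185 CPM at 5 dpf and 221 ± 82.3 CPM at 3 dpf (SD, n = 3 each), rank 34 among all genes at 5 dpf and rank 688 at 3 dpf. The log2 fold change of apobb.1 was 3.51 (SE 0.70, adjusted p = 0.00937), and 2.55 without 5 dpf replicate 1.

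The apoB gene apoba (chromosome 17, bases 30704068 to 30727966, plus strand) was far scarcer, also per kilobase of exon. It had 79.0, 6.38 and 6.99 CPM in the 5 dpf libraries, against 0.258, 0.530 and 0.548 CPM in the 3 dpf libraries, where 27, 60 and 69 fragments were counted. Every 5 dpf library was above every 3 dpf library, and 5 dpf replicate 1 held 11.8 times the mean of the other 5 dpf libraries. It rose by 6.10 on the log2 scale (SE 1.17, adjusted p = 0.00846), and by 3.90 (adjusted p = 0.000281) without that library.

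The remaining apoB gene, apobb.2 (ENSDARG00000075016, chromosome 20, bases 53439665 to 53470252), had 0, 89 and 73 counts in the 5 dpf libraries, against 10, 19 and 31 counts in the 3 dpf libraries. That is 0, 0.625 and 0.514 CPM at 5 dpf, against 0.0954, 0.168 and 0.246 CPM at 3 dpf. The 0 counts of 5 dpf replicate 1 allow a level of up to 0.0393 CPM (3 counts, counting error only). Fragments that mapped to several places were not counted, so for 5 dpf replicate 1 this limit covers only fragments unique to apobb.2. The ages overlapped through that library, which was the lowest of the 6 for apobb.2 and the highest for apobb.1. The log2 fold change of apobb.2 was 1.17 (SE 1.14, adjusted p = 0.462). Without 5 dpf replicate 1 it was 1.73 with an adjusted p of 0.0269, so the call rests on whether that library is used.

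Among the genes of exchangeable apolipoproteins, apoa1a (ENSDARG00000012076, chromosome 5, bases 37978501 to 37981521, plus strand), which encodes an apoA-I, had the highest level per kilobase of exon at 5 dpf. It had 2812, 572 and 709 CPM in the 5 dpf libraries, against 38.7, 62.9 and 32.4 CPM in the 3 dpf libraries. Every 5 dpf library was far above every 3 dpf library. It rose by 4.93 on the log2 scale (SE 0.73, adjusted p = 0.00395), and by 3.85 without 5 dpf replicate 1. In mean CPM, apoa1a ranked 70th among all genes at 5 dpf and 3797th at 3 dpf.

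Among the 4 apoA-IV genes, apoa4b.1 rose by less than the others. The gene apoa4b.1 (ENSDARG00000040298, chromosome 16, bases 23913943 to 23916263) was already abundant at the younger age, with 1647, 279 and 388 CPM in the 5 dpf libraries and 88.0, 179 and 101 CPM in the 3 dpf libraries. Its ages were separate, but 3 dpf replicate 2 came close to 5 dpf replicate 2. The log2 fold change of 2.65 (SE 0.70, adjusted p = 0.0255) was the smallest of the 9 that passed. This call was lost without 3 dpf replicate 1, 2 or 3 (adjusted p = 0.102, 0.0567 and 0.0911, at 2.44, 3.01 and 2.51), and the value was 1.45 without 5 dpf replicate 1.

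The neighbour apoa4b.2 (ENSDARG00000020866, chromosome 16, bases 23947196 to 23948538) had 873, 200.3 and 220.5 CPM in the 5 dpf libraries, against 6.42, 10.8 and 6.51 CPM in the 3 dpf libraries. Its low level at 3 dpf set it apart from apoa4b.1. It rose by 5.77 on the log2 scale (SE 0.71, adjusted p = 0.00254). Between them on the chromosome, apoa4b.3 (ENSDARG00000094929, bases 23921610 to 23922868) had 265, 41.9 and 46.6 CPM in the 5 dpf libraries and 0.668, 1.63 and 1.06 CPM in the 3 dpf libraries. It rose by 6.72 (SE 0.92, adjusted p = 0.00331), and by 5.31 without 5 dpf replicate 1. These 3 genes lie close together, and since fragments that mapped to several places were not counted, the level of each copy may be understated by an amount that the counts do not show.

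The fourth apoA-IV gene, apoa4a (ENSDARG00000101160), lies on chromosome 19 (bases 10845953 to 10850834) beside apoea. It had 67.3, 7.20 and 5.12 CPM in the 5 dpf libraries, against 0.277, 0.619 and 0.214 CPM in the 3 dpf libraries, so it was the scarcest apoA-IV gene in all 6 libraries, also per kilobase. It rose by 6.16 on the log2 scale (SE 1.18, adjusted p = 0.00851). As for apoba, 5 dpf replicate 1 dominated: it held 10.9 times the mean of the other 5 dpf libraries, and the value without it was 4.06.

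The apoE gene apoea (ENSDARG00000102004, chromosome 19, bases 10855158 to 10859694, plus strand) had the largest change of the 10. It had 1125, 302 and 399 CPM in the 5 dpf libraries, against 0.162, 0.283 and 0.357 CPM in the 3 dpf libraries, where 17, 32 and 45 fragments were counted. The 5 dpf libraries were far above the 3 dpf libraries, in which the gene was barely detected. The log2 fold change of 11.14 (SE 0.79, adjusted p = 0.000822) ranked 11th among all genes tested, and it stayed between 10.34 and 11.42 with each library left out in turn.

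The second apoE gene, apoeb (ENSDARG00000040295, chromosome 16, bases 23960744 to 23963461), had 527, 157 and 180.3 CPM in the 5 dpf libraries and 16.8, 20.2 and 10.6 CPM in the 3 dpf libraries. The ages did not overlap. It rose by 4.18 on the log2 scale (SE 0.56, adjusted p = 0.00312). In zebrafish apoeb is known from the yolk syncytial layer and from macrophages and microglia. The 4 yolk syncytial layer markers summed to 37.1 to 85.1 CPM at 5 dpf and 13.1 to 17.2 CPM at 3 dpf, and 1 of the 4 rose. That was the iron exporter gene SLC40A1, with means of 42.6 CPM at 5 dpf and 6.44 CPM at 3 dpf (log2 fold change 2.73, SE 0.33, adjusted p = 0.00239). It made up most of the sum at 5 dpf, with 49.8, 32.4 and 45.6 CPM of 85.1, 37.1 and 55.6 CPM in replicates 1, 2 and 3. The sum therefore does not describe the list as a whole, and which cells expressed SLC40A1 was not tested. The regulators mxtx1 and mxtx2, also listed as markers of that layer, did not exceed 0.367 CPM in any library. These data do not show whether the layer still expresses them at 3 or 5 dpf, so their low level does not measure its presence. Of the 22 macrophage genes matched, 14 were tested and 8 rose. The share of all genes tested that were called higher, to set beside both lists, was 18.1%. The 22 genes summed to 20.6, 52.6 and 45.0 CPM in 5 dpf replicates 1, 2 and 3, and to 8.41 to 15.5 CPM at 3 dpf. The most abundant, MPEG1 (ENSDARG00000043093), averaged 7.42 CPM at 5 dpf and 6.31 CPM at 3 dpf. It did not pass the edgeR test (log2 fold change 0.24, adjusted p = 0.6). The part of these cells in the level of apoeb was not tested.

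**Figure D2:**
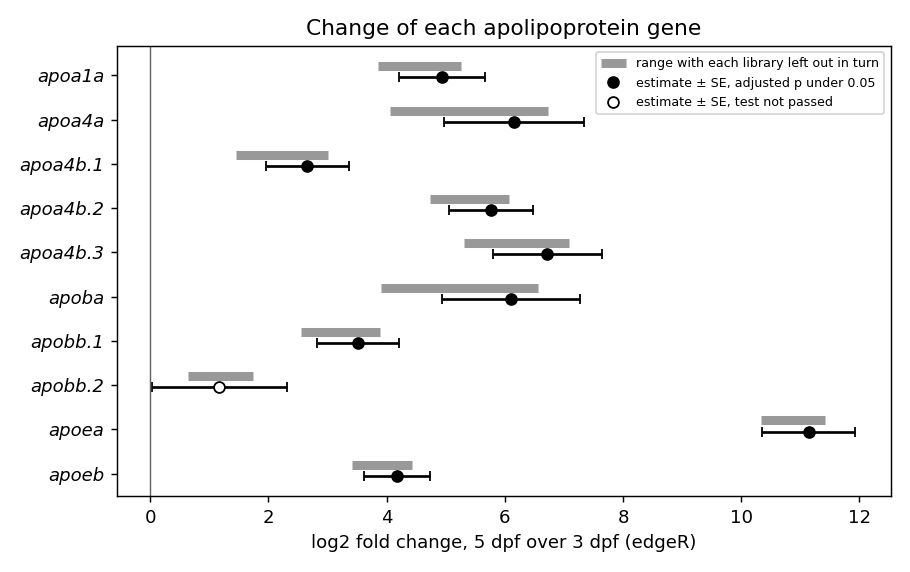
Log2 fold change of each gene, 5 dpf over 3 dpf, from edgeR, with its SE, and the range of the estimate when each library is left out in turn (grey). Filled points passed the test and apobb.2, the open point, did not. The estimate for apoea, 11.14, lies beyond the ranges of all the others.

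In 9 of the 10 genes the level was higher in 5 dpf replicate 1 than in the other libraries of that age. The share of all genes with that order was not counted, so it is not given as a trait of these genes. The excess over the mean of replicates 2 and 3 was smallest for apoeb (3.13 times) and apoea (3.20 times), was 3.88 to 5.99 times for apobb.1, apoa4b.2, apoa1a, apoa4b.1 and apoa4b.3, and was largest for apoa4a and apoba. The TMM factor of 0.612 enters these ratios: with library size alone they were 1.59 times for apoeb, 1.62 times for apoea, 1.94 to 3.05 times for those 5 genes, 5.62 times for apoa4a and 6.02 times for apoba. That library also had the highest sum of enterocyte markers, 11297 CPM, against 3889 and 4033 CPM in the other 5 dpf libraries, and of markers of lysosome-rich enterocytes, which take up protein, 3321 CPM, against 627 and 660 CPM. At 3 dpf the sums of the lysosome-rich list were 80.5 to 144 CPM, and 5 of its 7 genes rose at 5 dpf, against 18.1% of all genes tested. Most of the 5 dpf sums of that list came from FABP6, with 2134, 379 and 408 CPM in replicates 1, 2 and 3. These sums therefore mainly describe that gene and not the list as a whole. The part of enterocytes and lysosome-rich enterocytes in the result was not tested. Among the 3 dpf libraries, replicate 2 was highest for 7 of the 10 genes, and the share of all genes for which it was highest was not counted either.

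Together the 10 genes took 0.758, 0.270 and 0.470% of all counts in the 5 dpf libraries, against 0.0369, 0.0584 and 0.0330% in the 3 dpf libraries. The mean was 11.7-fold higher at 5 dpf, and 8.65-fold higher without 5 dpf replicate 1. With mitochondrial counts left out of the total the shares were 1.07, 0.300 and 0.520% at 5 dpf, against 0.0401, 0.0660 and 0.0363% at 3 dpf. On that base the mean was 13.3-fold higher at 5 dpf, and 8.65-fold higher without 5 dpf replicate 1, a combination added after the data were seen. Set against cldn15la, the gene that drives the sorted label, there were 13.7, 5.20 and 10.7 apolipoprotein fragments for each cldn15la fragment in the 5 dpf libraries and 0.530, 0.846 and 0.566 in the 3 dpf libraries. The level of cldn15la itself did not pass the test (log2 fold change -0.16, adjusted p = 0.779), and was 347 to 900 CPM at 5 dpf and 525 to 690 CPM at 3 dpf.

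Levels of different genes were compared per kilobase of annotated exon, since apoB transcripts are far longer than the others. The annotated exons of a gene may differ in length from the transcript that the cells make, so levels of similar size are not ranked firmly. On that scale the order at 5 dpf was apoa1a (1401 ± 1289 CPM per kb, SD, n = 3), apoa4b.1 (429 ± 424), apoea (402 ± 297), apoa4b.2 (388 ± 344), apobb.1 (196 ± 170), apoeb (136 ± 98.0), apoa4b.3 (123 ± 133), apoa4a (25.4 ± 33.8), apoba (2.28 ± 3.10) and apobb.2 (0.0463 ± 0.0406). Neighbours in this order overlapped in their ranges over libraries except apoba and apobb.2. Within libraries, each gene was above the next in 3 of 3 at ranks 1, 4, 7, 8 and 9, while apoa4b.1 was above apoea in 1 of 3, and apoea was above apoa4b.2, apobb.1 above apoeb and apoeb above apoa4b.3 in 2 of 3 each. At 3 dpf the order was apoa4b.1 (68.2 ± 27.3 CPM per kb), apoa1a (45.9 ± 16.6), apobb.1 (17.2 ± 6.40), apoeb (7.50 ± 2.30), apoa4b.2 (7.13 ± 2.27), apoa4b.3 (1.17 ± 0.502), apoa4a (0.354 ± 0.209), apoea (0.177 ± 0.0651), apoba (0.0330 ± 0.0121) and apobb.2 (0.0207 ± 0.00920). There apoa4b.1 and apoa1a overlapped in range although apoa4b.1 was higher in each library, and the pairs of neighbours apoeb and apoa4b.2, apoa4a and apoea, and apoba and apobb.2 overlapped as well. The gene apoea stood at rank 3 at 5 dpf and at rank 8 at 3 dpf.

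The make-up of the apolipoprotein transcript pool, as percent of the summed counts per kilobase of the 10 genes, therefore differed between the ages. At 5 dpf apoa1a held 44.6 ± 1.24% and apoea 14.2 ± 2.15%, with apoa4b.1 at 13.1 ± 1.36% and apoa4b.2 at 12.7 ± 1.00% (SD, n = 3). At 3 dpf apoa4b.1 held 46.0 ± 4.56% and apoa1a 31.1 ± 1.90%, with apoa4b.2 at 4.88 ± 0.274% and apoea at 0.129 ± 0.0691%. The share of apobb.1 was 6.36 ± 1.69% at 5 dpf and 11.7 ± 1.86% at 3 dpf. By contrast apoeb held 4.88 ± 0.865% at 5 dpf and 5.20 ± 1.23% at 3 dpf, and its values overlapped. These shares need no scaling between libraries. In 5 dpf replicates 1, 2 and 3 apoa1a held 45.7, 44.8 and 43.3%, and apoea 11.8, 15.3 and 15.7%. Replicate 1 was also the highest of them for 2 scarce genes, with apoa4a at 1.02, 0.526 and 0.292% and apoba at 0.0928, 0.0361 and 0.0308%, and the lowest for apoea and for apoeb, at 3.94, 5.64 and 5.06%.

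**Figure D3:**
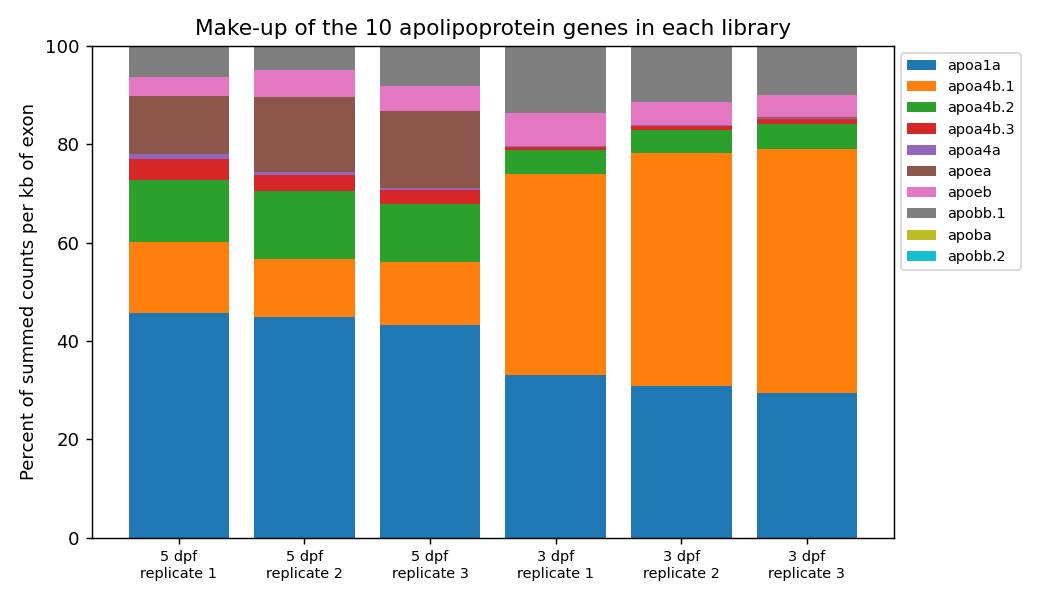
Percent of the summed counts per kilobase of the 10 genes that each gene held in each library, 5 dpf libraries left of 3 dpf libraries. In the 5 dpf bars apoa1a is the largest part (44.6% on average) and apoea is visible (14.2%), and in the 3 dpf bars apoa4b.1 is the largest (46.0%) and apoea is 0.129%.

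Ratios between 2 genes of the same library were compared between the ages for 8 pairs. With 3 libraries against 3 an exact two-sided permutation test cannot give less than p = 0.1, and 7 pairs reached it (0.114 after adjustment over the 8), so none could pass 0.05. The apoea to apoeb ratio, per kilobase, was 2.98, 2.70 and 3.10 in the 5 dpf libraries, against 0.0139, 0.0199 and 0.0477 in the 3 dpf libraries. The more abundant apoE transcript was apoea in all 5 dpf libraries and apoeb in all 3 dpf libraries, with a difference of 6.95 between the mean log2 ratios. The apoa4b.1 to apoa4b.2 ratio was 1.17, 0.860 and 1.09 at 5 dpf, against 8.47, 10.2 and 9.57 at 3 dpf, a difference of -3.19. Per kilobase, these neighbouring copies were thus near equal at 5 dpf, against a clear excess of apoa4b.1 at 3 dpf. The near equality rests on the annotated exon lengths of 1796 and 1111 bases. Before division by length, apoa4b.1 had 125800, 39669 and 55157 counts in the 5 dpf libraries, against 66657, 28532 and 31328 for apoa4b.2. Fragments that mapped to both copies were not counted. The difference between the ages does not depend on the lengths, which are the same at both.

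Smaller shifts separated the ages in the other pairs. The mean log2 ratio of apoa4a to apoa4b.1 was -4.59 ± 0.82 at 5 dpf and -7.65 ± 0.37 at 3 dpf, and that of apoba to apobb.1 was -7.05 ± 1.00 at 5 dpf and -9.02 ± 0.83 at 3 dpf. For apoa1a to apobb.1 it was 2.84 ± 0.41 at 5 dpf and 1.43 ± 0.14 at 3 dpf, and for apoa4b.1 to apobb.1 it was 1.07 ± 0.36 at 5 dpf and 1.99 ± 0.37 at 3 dpf. Against the scaffold gene, then, apoa1a was higher at 5 dpf and apoa4b.1 was lower. The ratio of apoa4b.3 to apoa4b.2 differed least of these 7, at -1.86 ± 0.31 at 5 dpf and -2.66 ± 0.34 at 3 dpf. The pair of apobb.2 and apobb.1 overlapped between the ages (exact permutation p = 0.3). Here too, any fragments that mapped to both genes were not counted.

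**Figure D4:**
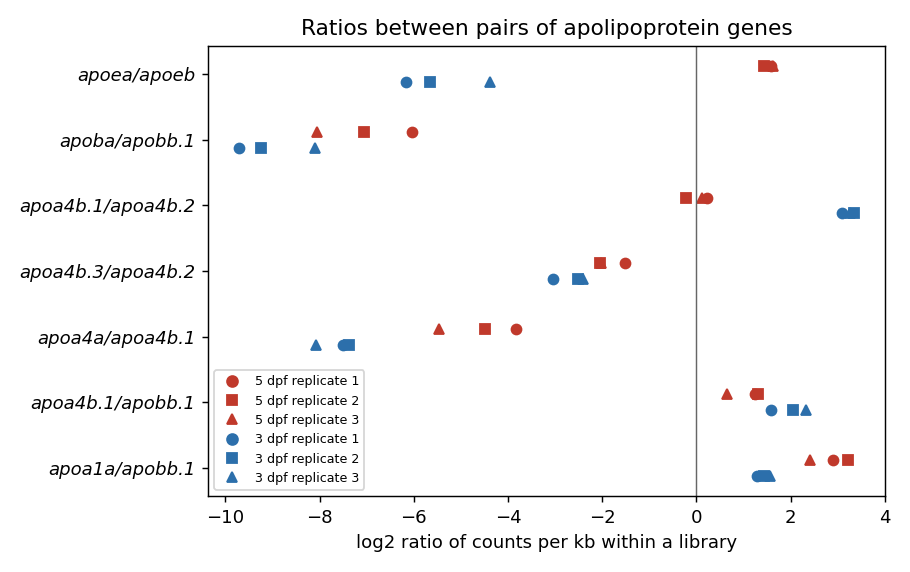
Log2 ratio of counts per kilobase between 2 genes of the same library, 5 dpf libraries drawn above 3 dpf libraries, with a point for each library. The ages are separate in all 7 pairs drawn, most for apoea over apoeb (means 1.55 and -5.40); apobb.2 over apobb.1, which overlapped, is not drawn.

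The genes apoa4b.1, apoa4b.2, apoa4b.3 and apoeb lie in a single stretch of chromosome 16, and apoa4a and apoea beside each other on chromosome 19. On chromosome 16 apoa4b.3 starts 5347 bases after the end of apoa4b.1, and si:dkey-7f3.14 follows 878 bases on. Then come apoa4b.2, apoeb 12206 bases after it, and apoc1 8665 bases after apoeb, followed by apoc4, apoa2 and apoc2. The long gene nbn spans those apoA-IV genes and apoeb on the same strand without sharing an exon base with them. The level of apoa2, which codes for an apolipoprotein of high density lipoprotein, averaged 38.6 CPM at 5 dpf and 43.0 CPM at 3 dpf, with a log2 fold change of -0.16 (adjusted p = 0.691), although it lies between apoc1 and apoc2, which both rose. On chromosome 19 apoea starts 4324 bases after apoa4a. On the other side of apoa4a, 866 bases away, tomm40l, a gene related to the mitochondrial import channel, averaged 30.9 CPM at 5 dpf and 104 CPM at 3 dpf and fell by 1.76 on the log2 scale (SE 0.25, adjusted p = 0.00354).

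Within 30 kb of the 10 genes lay 26 other genes, of which 22 were tested, 4 rose (lipea, si:dkey-7f3.14, apoc1 and apoc2) and 5 fell (rnf214, tomm40l, PSMD4, nbn and bub1ba). Among all genes tested 18.1% were called higher and 14.1% lower, so the share of these neighbours that rose was near that of all genes. Their median log2 fold change was -0.26. The calls of lipea, apoc2, rnf214, PSMD4 and nbn were each lost in at least 1 fit with a library left out. The highest edgeR adjusted p in those fits was 0.0730, 0.134, 0.0877, 0.0821 and 0.106, in that order. The scarce gene si:dkey-7f3.14 averaged 0.509 CPM at 5 dpf and 0.0215 CPM at 3 dpf (log2 fold change 4.51, SE 1.32, adjusted p = 0.0354), and its call was lost without each 3 dpf library and without 5 dpf replicate 1. The end of apoea shares 136 and 149 exon bases with a pair of genes on the opposite strand, and the counting used strand.

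**Figure D5:**
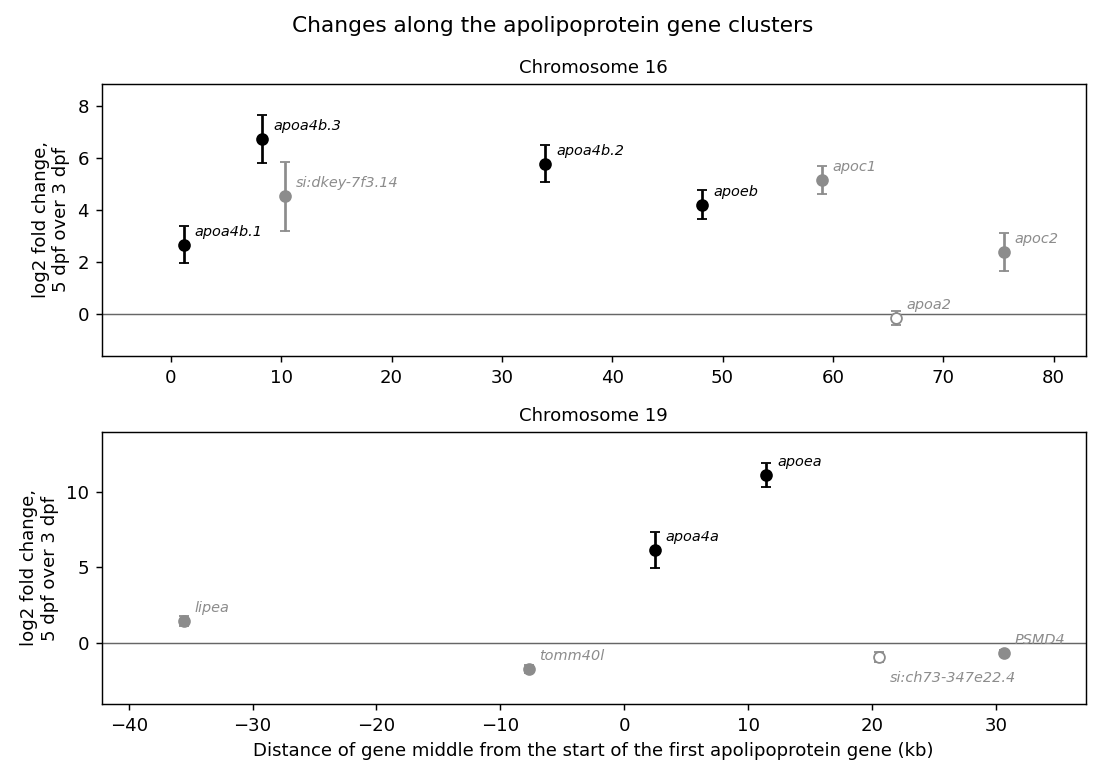
Log2 fold change (5 dpf over 3 dpf, with SE) of genes by distance of their middle from the start of the first of the 10 genes in the stretch, in kilobases, on chromosome 16 (top) and chromosome 19 (bottom). Black points are genes of the 10, grey points other tested genes, and open points did not pass the test; nbn, OSGIN2 and GTPBP10 and untested genes are not drawn. On chromosome 16 apoa2, at -0.16, lies between apoc1 and apoc2, at 5.13 and 2.38, and on chromosome 19 tomm40l, at -1.76, lies beside apoa4a, at 6.16.

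Among 13 other apolipoprotein genes tested of 14 matched, 5 rose and none fell, with a median log2 fold change of 1.15. For this list and those that follow, the shares over all genes tested were 18.1% higher and 14.1% lower. APOD (ENSDARG00000060350), a lipocalin that is not a structural part of chylomicrons, averaged 14.4 CPM at 5 dpf and 0.154 CPM at 3 dpf (log2 fold change 6.54, SE 0.55, adjusted p = 0.00109). The gene of the small apolipoprotein C-I, apoc1, averaged 38.3 CPM at 5 dpf and 1.09 CPM at 3 dpf (log2 fold change 5.13, SE 0.54, adjusted p = 0.00182). The gene of the activator of lipoprotein lipase, apoc2, averaged 823 CPM at 5 dpf and 159 CPM at 3 dpf, with a log2 fold change of 2.38 (SE 0.72, adjusted p = 0.04). Its call was lost without each 3 dpf library, with an adjusted p of up to 0.134, and its value was 1.06 without 5 dpf replicate 1. The second apoA-I gene, apoa1b, was named after its values were seen. It had 788, 241 and 307 CPM in the 5 dpf libraries and 279, 336 and 139 CPM in the 3 dpf libraries, which overlapped (log2 fold change 0.82, adjusted p = 0.254), unlike those of apoa1a.

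Of 21 tested genes that make fat, load it onto apoB and move the particles out of the cell, 6 rose and 1 fell, with a median log2 fold change of 0.47. The largest change was in DGAT2, an enzyme of the last step of triglyceride synthesis, with means of 54.9 CPM at 5 dpf and 1.59 CPM at 3 dpf (log2 fold change 5.11, SE 0.63, adjusted p = 0.00256). Its partner upstream, MOGAT2, which rebuilds diglyceride from absorbed monoglyceride, averaged 77.7 CPM at 5 dpf and 13.1 CPM at 3 dpf (2.57, SE 0.54, adjusted p = 0.0111, but 0.0546 without 3 dpf replicate 1). The lipid droplet gene cideb averaged 33.2 CPM at 5 dpf and 5.16 CPM at 3 dpf (2.68, SE 0.60, adjusted p = 0.014), and its call was lost without 3 dpf replicate 1 or 3. PLA2G12B, needed for lipoprotein secretion in mouse and zebrafish, averaged 233 CPM at 5 dpf and 42.1 CPM at 3 dpf (2.46, SE 0.46, adjusted p = 0.00778). TMEM41B, a scramblase of the endoplasmic reticulum, averaged 13.3 CPM at 5 dpf and 21.1 CPM at 3 dpf (-0.67, SE 0.20, adjusted p = 0.0363), and lost its call under 8 of the other settings tried.

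The gene of the microsomal triglyceride transfer protein, MTTP, without which apoB particles are not made, was named after its values were seen. It had 304, 92.1 and 153 CPM in the 5 dpf libraries, against 125, 176 and 78.7 CPM in the 3 dpf libraries. The ages overlapped, and the log2 fold change of 0.53 did not pass (adjusted p = 0.417). Without 5 dpf replicate 1 it was -0.04, while apobb.1 in the same libraries was still 2.55.

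Of 23 receptor and remodelling genes tested, 5 rose and 2 fell, with a median of 0.02. SCARB1, the receptor that takes cholesterol from high density lipoprotein, averaged 42.1 CPM at 5 dpf and 10.2 CPM at 3 dpf (log2 fold change 2.05, SE 0.30, adjusted p = 0.00399). One LRP1 copy (ENSDARG00000097827), a large receptor of remnants, averaged 21.0 CPM at 5 dpf and 2.26 CPM at 3 dpf (3.21, SE 0.54, adjusted p = 0.00558). The other (ENSDARG00000029146) averaged 139 CPM at 5 dpf and 239 CPM at 3 dpf (-0.78, SE 0.25, adjusted p = 0.0493), a call lost under 10 other settings. The cholesterol exporter gene abca1b, whose product loads apoA-I, averaged 116 CPM at 5 dpf and 35.6 CPM at 3 dpf (1.71, SE 0.55, adjusted p = 0.0484). That call was lost without each 3 dpf library, and the value was 0.77 without 5 dpf replicate 1. The adaptor ldlrap1a averaged 6.34 CPM at 5 dpf and 2.49 CPM at 3 dpf (1.35, SE 0.29, adjusted p = 0.0128), and SORT1 (ENSDARG00000029402), a sorting receptor, 13.4 CPM at 5 dpf and 33.4 CPM at 3 dpf (-1.32, SE 0.34, adjusted p = 0.0238). Both calls were lost with library size alone and without 3 dpf replicate 1 or 2, and that of SORT1 also without 5 dpf replicate 2. The receptor gene ldlra, highest of the list at 265 to 447 CPM at 5 dpf and 356 to 377 CPM at 3 dpf, did not pass (0.02, adjusted p = 0.956).

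Of 30 transcription factor genes whose products are known to act on apolipoprotein genes, mostly from mammals, 3 rose and 9 fell, with a median log2 fold change of -0.20. With library size alone only 2 fell. The rising ones were creb3l3b, kin of a mouse activator of Apoa4 and Apoc2, with means of 53.8 CPM at 5 dpf and 9.68 CPM at 3 dpf (log2 fold change 2.47, SE 0.65, adjusted p = 0.0242), and the copies of the fatty acid sensor gene, pparaa (20.4 CPM at 5 dpf and 8.11 CPM at 3 dpf, 1.33, SE 0.20, adjusted p = 0.00389) and PPARA (23.9 CPM at 5 dpf and 11.6 CPM at 3 dpf, 1.05, SE 0.25, adjusted p = 0.0166). The call of creb3l3b was lost without each 3 dpf library, with a value of 1.45 without 5 dpf replicate 1, and that of PPARA with library size alone and without 5 dpf replicate 2 or either of 3 dpf replicates 1 and 2.

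Among the falling ones, the nuclear receptor gene NR5A2 averaged 17.5 CPM at 5 dpf and 61.7 CPM at 3 dpf (-1.82, SE 0.32, adjusted p = 0.00637) and the coactivator gene PPARGC1A 22.6 CPM at 5 dpf and 66.0 CPM at 3 dpf (-1.55, SE 0.39, adjusted p = 0.0212). ONECUT1 averaged 14.9 CPM at 5 dpf and 33.1 CPM at 3 dpf (-1.15, SE 0.34, adjusted p = 0.0383). PPARGC1A lost its call without any of 4 libraries (replicates 2 and 3 at 5 dpf, 1 and 2 at 3 dpf), and ONECUT1 under 8 other settings. HNF4A, a main activator of apolipoprotein genes in mammals and named after its values were seen, had 63.5, 71.7 and 102 CPM in the 5 dpf libraries, against 169, 194 and 123 CPM in the 3 dpf libraries. It fell by 1.04 on the log2 scale (SE 0.27, adjusted p = 0.0231), a call lost with library size alone and without 5 dpf replicate 2 or either of 3 dpf replicates 1 and 2.

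The liver makes most of these apolipoproteins too. Of 21 hepatocyte genes tested 7 rose and 4 fell, with a median log2 fold change of 0.73, and none was at 0 in any library. Their sum was 89.4, 126 and 114 CPM in the 5 dpf libraries, against 323, 456 and 154 CPM in the 3 dpf libraries. That lower sum at 5 dpf came largely from the complement gene c3a.1. It averaged 11.0 CPM at 5 dpf and 201 CPM at 3 dpf (log2 fold change -4.19, adjusted p = 0.00301). In 3 dpf replicates 1, 2 and 3 it had 207.5, 322.6 and 74.2 CPM, so the sum does not describe the list as a whole. The liver fatty acid binding protein gene fabp10a is described outside the naming rule. It had 9.49, 9.83 and 8.06 CPM at 5 dpf, against 0.515, 0.159 and 0.882 CPM at 3 dpf. Genes of the exocrine pancreas all rose (12 of 12), with sums of 350 to 1191 CPM at 5 dpf and 2.11 to 2.63 CPM at 3 dpf, highest in 5 dpf replicate 2. Sums over 8 muscle genes were 90.6, 785 and 825 CPM in 5 dpf replicates 1, 2 and 3. At 3 dpf these sums were 1375 to 2225 CPM, and 2 of the 8 genes were lower at 5 dpf. Over 5 epidermis genes the sums were 3529 to 5476 CPM at 5 dpf and 2357 to 2824 CPM at 3 dpf, with 4 higher. Most of these epidermis sums was krt4, at 3149 to 5144 CPM at 5 dpf and 2307 to 2735 CPM at 3 dpf. It did not pass the edgeR test (adjusted p = 0.11). Erythroid genes (91.9 to 178 CPM at 5 dpf and 84.6 to 162 CPM at 3 dpf) and neuron genes (33.2 to 53.3 CPM at 5 dpf and 22.9 to 34.0 CPM at 3 dpf) had 2 and 1 members higher. The part of these cells in the result was not tested.

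The gene whose profile was most like that of each apolipoprotein gene was found among 9550 other genes of at least 10 CPM, by the root mean square difference of log2 CPM over the 6 libraries after centring. For apoa4b.1 it was pon1, a paraoxonase gene (0.0928), for apoeb SLC13A2, a carboxylate transporter gene (0.126), for apoa1a SLC34A2, a phosphate transporter gene (0.226), and for apobb.1 SLC5A1, a glucose transporter gene (0.251). The next were NAALAD2 for apoba (0.271) and for apoa4a (0.397), the lysosomal protease gene ctsl.1 for apoa4b.3 (0.274), si:ch211-77g15.32 for apoa4b.2 (0.280), and UCP1 for apoea (0.391). The nearest for apobb.2 was a TTN copy (ENSDARG00000000563) at 0.689, a poor match. Within the 10, the closest pair was apoa1a and apoeb (0.372), and the nearest to apoea was apoa4b.3 at 2.36.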

How the data were processed

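RNA-seq of sorted intestinal epithelial cells was analysed in 3 libraries at 5 dpf and 3 at 3 dpf. Each deposited table gives unnormalized counts, 1 per gene and library. The authors made these counts with featureCounts 1.6.3 from exons summed by gene, with its strand option at 2, on the Ensembl 115 annotation of GRCz11, per the file headers. Fragments that mapped to several places or to several genes were not counted. The submitters' processing notes also name Trimmomatic 0.38, STAR 2.7.11 and Subread 1.6.3. Libraries of one age differed by more than sampling noise in every pair, so each was used as 1 sample, and 0 columns belonged to no sample.

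All 32520 genes were read, and 22386 passed filterByExpr (minimum count 10, minimum total 15). They were tested with edgeR 4.0.16 in R 4.3.3 (quasi-likelihood F-test, two-sided, TMM, age as the only term), with Benjamini-Hochberg adjustment over all of them and a threshold of 0.05. The SE is the log2 fold change divided by the square root of F. Log2 CPM for the profiles used a prior count of 2. Ratios within a library had 0.5 added to each count, and were tested by exact permutation over libraries. The scripts were tested on simulated data. Equal replicate numbers did not mark shared deviations (correlations of 0.092, -0.217 and 0.193), so no block was used. Depth per gene is large for most of the 10 genes, and the floor of 3 counts covers counting error only.

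The 10 genes, the other lists and the alternatives were chosen with earlier results of these data known. Of 195 list entries 14 matched no gene. Named genes were all 10, up to 4 called members of each pathway list with the largest change in each direction at 5 CPM or more, the most abundant member of each marker list, genes within 30 kb, and the nearest profile of at least 10 CPM. Not all that the rule took are described. Some genes outside it are described as well, among them fabp10a, ldlra, cldn15la, mxtx1 and mxtx2. Other settings tried were other scalings (RLE, upper quartile, none beyond library size), other filters (none, or 1 CPM in at least 3 libraries), DESeq2 1.42.0, the replicate number as a block, mitochondrial genes removed, and libraries left out.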

Additional observations from a re-analysis of the deposited data

How the results depend on the processing

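Of the 10 apolipoprotein genes 9 were called higher under RLE, upper quartile and library size scaling, both filters, no mitochondrial genes and without 5 dpf replicate 2 or 3. DESeq2 called 8 and gave no adjusted p for apoba, and 8 were called without each 3 dpf library, when apoa4b.1 was lost. Leaving out 5 dpf replicate 1, alone or with 3 dpf replicate 3, gave 10. With the replicate number as a block, 9 of the 10 were called, and 5638 genes in all, against 7194 without the block; apoc2, HNF4A, TMEM41B and the LRP1 copy that fell lost their calls under it. The total was 3849 with library size only, 3003 to 10628 with each library left out, and 11902 without both of those libraries, and the cause was not tested. Upper quartile scaling put the median over all genes at 0.22 (log2), against 0.09. With each library left out, apoa4b.1 ran from 1.45 to 3.01 and apobb.2 from 0.64 to 1.73, and without both libraries they were 1.31 and 2.08. Log2 fold changes changed sign for MTTP (-0.04 to 0.82, and -0.31 without both), the TTN copy (-0.80 to 0.36, and 0.49 without both) and apoa2 (-0.41 to 0.067, and -0.46 without both).

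Counts of listed genes moved as follows. With each library left out, higher calls ran from 2 to 5 for other apolipoproteins, 3 to 6 for assembly, 2 to 6 for receptors and 1 to 3 for transcription factors, and lower calls from 0 to 1, 0 to 2, 0 to 4 and 2 to 14. Without both libraries the lower calls were 1, 3, 6 and 14. With library size only, 3 receptor genes were higher, and 0 assembly genes, 0 receptor genes and 2 transcription factors were lower. Lower assembly calls were 0 with the 1 CPM filter, the block and upper quartile scaling. Lower receptor calls were 4 with DESeq2 and 1 with either filter, the block, upper quartile scaling and no mitochondrial genes. The test could not be run for apobb.2 under the 1 CPM filter. Low counts limit apobb.2, and apoea, apoa4a and apoba at 3 dpf.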
